A study of Homo sapiens with 10 samples.

Results

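The 10 genes described here are core genes of the pluripotent state of human embryonic stem cells, POU5F1, NANOG, PRDM14, SALL4, ZFP42, DPPA4, L1TD1, LIN28A, LIN28B and USP44. They were taken by symbol from the RNA-seq count table, which has 31017 genes, and all 10 passed the filter on low counts and were tested. Promoter interactions were taken from the HindIII restriction fragments that hold the gene starts of the count table. For 8 of the 10 genes that fragment was one of the 21833 bait fragments in the interaction lists. The lists held no call made from the fragments that hold the starts of NANOG and L1TD1. A captured fragment without a call could not be told from one that was not captured.

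The study compared human embryonic stem cells (ESCs) of the established line H9, cultured in Pluripro medium and matrix, with neuroectodermal cells (NECs) derived from them and harvested on day 7 of differentiation. Gene expression was measured by RNA-seq of mRNA, and promoter contacts by promoter capture Hi-C (PCHi-C), in 2 biological replicates of each cell type. All samples come from a single cell line, no genetic change is named for either group, and ESC replicate 2 of the PCHi-C combined technical replicates. The conventional Hi-C samples were not analysed here.

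Pluripotency is the ability of a cell to form all tissues of the embryo. It is held by a network of transcription factors that bind their own and each other's regulatory elements, with the proteins of POU5F1 (OCT4) and NANOG, together with SOX2, at its centre. PRDM14 and SALL4 are zinc finger proteins that work with this network, and ZFP42 (REX1) is a zinc finger gene widely read as a marker of undifferentiated cells. A further layer acts on chromatin and RNA. LIN28A and LIN28B bind the precursors of the let-7 microRNAs and block their maturation.

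Promoter sequences are shown for the genes whose changes or contacts are followed below, since the network's factors are known to act at such elements. They are RefSeq promoters (assembly GRCh38.p14) of 250 bases before and 50 bases after an annotated start, and each was located in GRCh37, the build of the interaction lists. The table held 5 of the 10 genes, NANOG, ZFP42, DPPA4, LIN28B and L1TD1, and LIN28B has 2 promoters in it. Capitals mark matches, on either strand, to the octamer bound by POU factors (ATGCAAAT), a core bound by SOX factors (AACAAT), a composite of a SOX part (CATTGT) and an octamer part (ATGCAAA) 1 base apart, a PRDM14 motif (GGTCTCTAA), the TATA box (TATAAA), the GC box bound by SP factors (GGGCGG) and an E-box (CACGTG).
NANOG, chr12:7941748-7942047, plus strand: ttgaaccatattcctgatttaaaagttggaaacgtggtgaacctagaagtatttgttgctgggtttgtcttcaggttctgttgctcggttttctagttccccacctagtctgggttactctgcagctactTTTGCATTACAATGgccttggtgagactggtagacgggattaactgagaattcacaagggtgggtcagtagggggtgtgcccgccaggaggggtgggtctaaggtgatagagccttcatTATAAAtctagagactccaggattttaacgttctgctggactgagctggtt
ZFP42, chr4:188916675-188916974, plus strand: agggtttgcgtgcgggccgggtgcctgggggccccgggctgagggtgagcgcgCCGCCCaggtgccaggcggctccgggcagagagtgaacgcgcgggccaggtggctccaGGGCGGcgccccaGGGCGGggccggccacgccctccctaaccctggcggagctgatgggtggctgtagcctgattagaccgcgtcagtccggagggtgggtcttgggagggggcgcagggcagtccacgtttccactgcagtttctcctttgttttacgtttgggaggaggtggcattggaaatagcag
DPPA4, chr3:109056344-109056643, minus strand: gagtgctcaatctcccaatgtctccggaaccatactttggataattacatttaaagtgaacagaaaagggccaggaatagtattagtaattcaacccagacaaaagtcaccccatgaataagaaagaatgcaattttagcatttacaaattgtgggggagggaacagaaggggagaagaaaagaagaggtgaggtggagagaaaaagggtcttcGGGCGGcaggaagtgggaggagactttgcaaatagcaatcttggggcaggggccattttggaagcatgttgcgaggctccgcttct
L1TD1, chr1:62660271-62660570, plus strand: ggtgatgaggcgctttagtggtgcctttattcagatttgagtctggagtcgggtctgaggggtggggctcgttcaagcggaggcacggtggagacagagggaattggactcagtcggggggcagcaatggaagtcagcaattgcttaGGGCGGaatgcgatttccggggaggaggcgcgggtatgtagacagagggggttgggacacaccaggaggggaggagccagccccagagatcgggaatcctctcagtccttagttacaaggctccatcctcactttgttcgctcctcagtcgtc
LIN28B upstream start, chr6:105388590-105388889, plus strand: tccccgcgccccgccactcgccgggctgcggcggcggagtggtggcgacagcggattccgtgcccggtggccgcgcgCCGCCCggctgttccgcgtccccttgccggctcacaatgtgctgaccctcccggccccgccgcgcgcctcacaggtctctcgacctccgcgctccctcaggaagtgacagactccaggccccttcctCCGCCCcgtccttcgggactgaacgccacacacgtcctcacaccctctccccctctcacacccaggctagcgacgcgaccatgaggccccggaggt
LIN28B downstream start, chr6:105404732-105405031, plus strand: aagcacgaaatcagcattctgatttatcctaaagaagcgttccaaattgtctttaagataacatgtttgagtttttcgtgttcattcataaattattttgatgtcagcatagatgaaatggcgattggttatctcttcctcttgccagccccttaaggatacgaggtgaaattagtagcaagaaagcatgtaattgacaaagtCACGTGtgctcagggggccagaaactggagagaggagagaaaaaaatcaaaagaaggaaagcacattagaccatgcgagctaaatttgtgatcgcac

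The NANOG promoter held the composite element on its minus strand, starting 120 bases before the start, and a TATA box letter match at the start itself. The composite was added to the search after the sequences had been read. It matched 3 of the 34796 promoters of the table (0.00862%). Within it, neither the whole octamer nor the SOX core given above was matched, and no promoter of the 5 genes matched the octamer (1.76% of all promoters), the SOX core (10.1%) or the PRDM14 motif (0.158%) in these windows. GC boxes were found in 4 of the 6 promoters, against 44.9% of all promoters, with 3 in ZFP42, 1 each in DPPA4 and L1TD1, and 2 in the upstream promoter of LIN28B. The downstream LIN28B promoter held the single E-box, a match found in 7.20% of all promoters. The 2 LIN28B promoters differed in base composition. The upstream one had 37 CpG dinucleotides, more than 88.7% of the promoters had, and the downstream one had 8, against a median of 14. NANOG and DPPA4 had 5 each, L1TD1 14 and ZFP42 24. These matches describe letters and not bound sites.

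The RNA-seq libraries held 19234087 and 25356382 counted reads for ESC replicates 1 and 2, and 20793224 and 24323762 for NEC replicates 1 and 2. Expression is given as CPM, the reads of a gene scaled to a common library size after TMM normalisation, log2 fold changes are NEC over ESC with their standard error (SE), and adjusted p-values come from edgeR's quasi-likelihood test with Benjamini-Hochberg adjustment over the 17564 genes tested. A gene was called when the adjusted p was under 0.05 and the log2 fold change was beyond 1.5 in either direction. Each cell type had its own sequencing lane, so lane and cell type cannot be told apart. Neuroectoderm markers rose in NECs for 10 of 10 genes, where 11.4% of all genes tested were called higher (summed CPM 30.1 and 19.1 in ESCs, 474 and 395 in NECs). Because RNA came from whole cultures, fewer cells expressing a gene and less RNA per cell cannot be told apart.

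Of the 10 genes, 7 were called lower in NECs, where 9.68% of all genes tested were, and 0 were called higher. The 7 were NANOG, ZFP42, PRDM14, POU5F1, L1TD1, DPPA4 and USP44. LIN28A and SALL4 passed the adjusted p without reaching the fold change threshold, which makes 9 of 10 lower at the adjusted p alone, against 29.7% of all genes. In all 10 genes both NEC libraries lay below both ESC libraries, as was so for 41% of all genes tested. The median log2 fold change was -2.93 over the 10 genes and 0.01 over all genes tested. Without NEC replicate 1, 6 genes were called, because USP44 was then at -1.35.

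**Figure D1:**
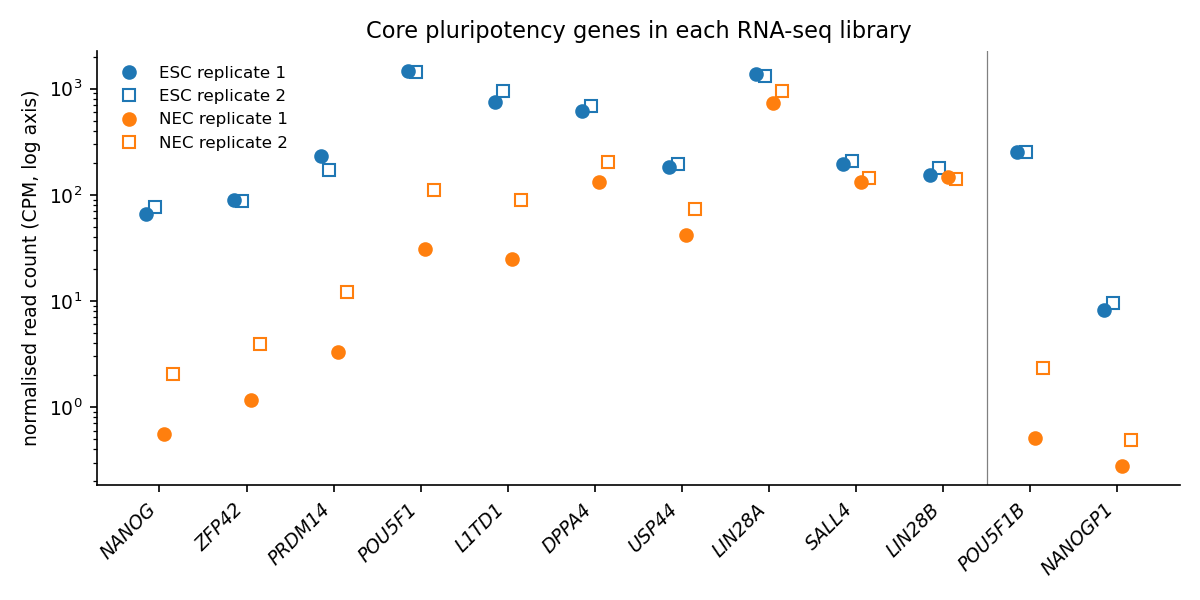
Normalised read count (CPM, log axis) of each gene in the 4 RNA-seq libraries, ESCs in blue and NECs in orange, with replicate 1 filled and replicate 2 open; the copies POU5F1B and NANOGP1 stand right of the line. POU5F1 stood at 1482 and 1438 CPM in ESCs and at 31.0 and 111 in NECs, while the LIN28B libraries lay between 142 and 180.

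Among the factors at the centre of the network, POU5F1 had 1482 and 1438 CPM in ESCs and 31.0 and 111 CPM in NECs. The ESC libraries were nearly equal, and the NEC libraries were far below them but also unlike each other. The change was 20.5-fold (log2 fold change -4.35, SE 0.57, adjusted p = 0.000991 by edgeR). NANOG, the homeodomain factor that stabilises the pluripotent state, had 66.3 and 76.4 CPM in ESCs and 0.562 and 2.03 CPM in NECs, the last from 12 and 50 reads. It showed the largest change of the 10 genes (log2 fold change -5.74, SE 0.37, adjusted p = 7.94e-05 by edgeR), and the libraries of the cell types did not overlap.

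PRDM14, which holds down differentiation genes and helps to keep POU5F1 active in human ESCs, had 234 and 173 CPM in ESCs. Its NEC libraries held 3.28 and 12.04 CPM. Its ESC replicates differed by more than those of the other three factors, and that gap was small beside the 26.1-fold change between cell types (log2 fold change -4.71, SE 0.50, adjusted p = 0.000469 by edgeR). ZFP42 had 88.7 and 88.0 CPM in ESCs and 1.17 and 3.89 CPM in NECs, a 34.0-fold change (log2 fold change -5.09, SE 0.39, adjusted p = 0.000137 by edgeR).

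SALL4 had 194 and 210 CPM in ESCs and 132 and 143 CPM in NECs, so that 65.3% and 70.9% of the ESC mean was left. The difference exceeded the spread of the replicates (log2 fold change -0.55, SE 0.09, adjusted p = 0.00270 by edgeR), and it did not reach the fold change threshold.

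DPPA4 and L1TD1 are genes of the pluripotent state that are not themselves classical transcription factors. DPPA4 encodes a chromatin-associated protein with a SAP domain. It had 612 and 689 CPM in ESCs and 132 and 202 CPM in NECs, and was called with one of the smaller changes, 3.89-fold (log2 fold change -1.96, SE 0.20, adjusted p = 0.000425 by edgeR). L1TD1, an RNA-binding protein derived from a LINE-1 element, had 751 and 960 CPM in ESCs and 24.8 and 90.1 CPM in NECs. Its change was 14.8-fold (log2 fold change -3.89, SE 0.57, adjusted p = 0.00150 by edgeR).

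USP44 encodes a deubiquitinase that removes ubiquitin from histone H2B. It had 184 and 195 CPM in ESCs and 41.7 and 74.0 CPM in NECs. The libraries did not overlap, and the change of 3.28-fold lay closest to the threshold among the genes called (log2 fold change -1.71, SE 0.25, adjusted p = 0.00143 by edgeR). Of 8 other enzymes and cofactors of H2B ubiquitylation, 0 were called by edgeR and 0 by DESeq2, where 9.68% of all genes tested were called lower and 11.4% higher. At an unadjusted p under 0.05, and also at the adjusted p alone, 2 passed, against 61.1% of all genes at the adjusted p alone. Those were the deubiquitinases USP7, with a log2 fold change of -0.75 (SE 0.11), and USP3, with 0.42 (SE 0.11), and the list's median was -0.07.

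The LIN28 paralogues were not called. LIN28A had 1361 and 1329 CPM in ESCs and 729 and 941 CPM in NECs, which left 54.2% and 69.99% of the ESC mean (log2 fold change -0.69, SE 0.15, adjusted p = 0.00766 by edgeR). LIN28B had 152 and 180 CPM in ESCs and 147 and 142 CPM in NECs. The lowest ESC library stood barely above the highest NEC library, and the difference did not pass the test (log2 fold change -0.20, SE 0.11, adjusted p = 0.140 by edgeR).

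Among 18 measured genes of the LIN28 and let-7 pathway other than the paralogues, 0 were called by edgeR and 0 by DESeq2, and 12 passed at an unadjusted p under 0.05. At the adjusted p alone 6 were lower and 6 higher, a share close to the 61.1% of all genes tested that passed it, with a median log2 fold change of -0.05. HMGA2, a chromatin protein and a classical let-7 target, stood at 0.85 (SE 0.11). ZCCHC11, a terminal uridylyltransferase that works with LIN28A on let-7 precursors, stood at 0.95 (SE 0.09), and TRIM71, another let-7 target, at -0.87 (SE 0.13).

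**Figure D2:**
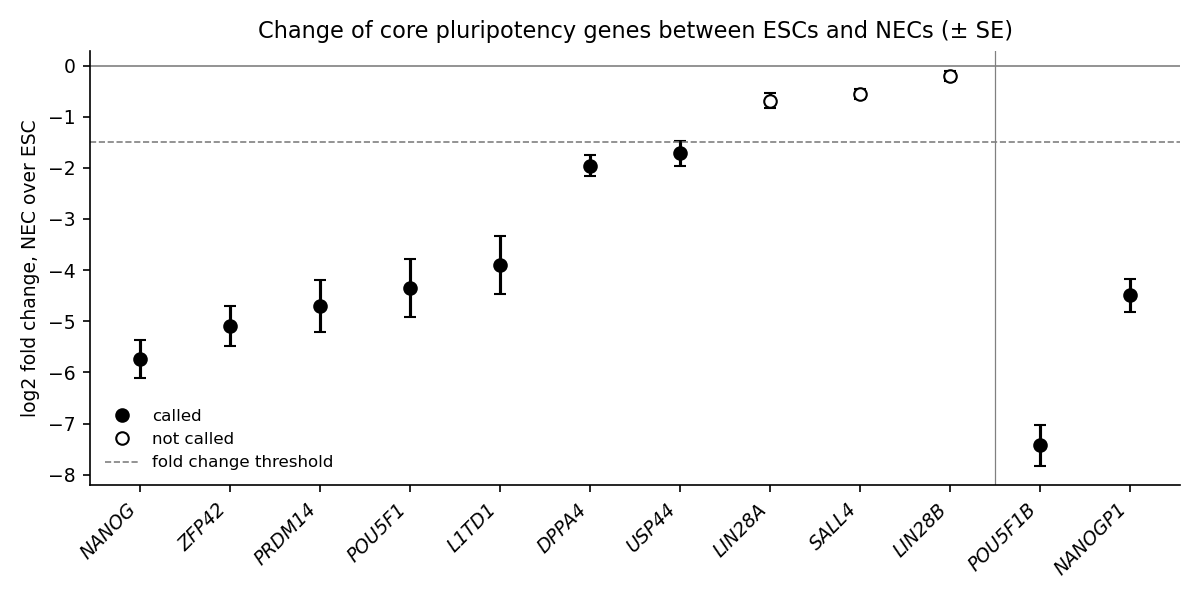
Log2 fold change of NEC over ESC for each gene, with bars of 1 SE from edgeR; filled points were called and open points were not, and the dashed line is the fold change threshold of -1.5. Values ran from -5.74 for NANOG to -0.20 for LIN28B, with LIN28A, SALL4 and LIN28B above the dashed line, and -7.42 for the copy POU5F1B.

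Levels can be compared between genes only per length, and were therefore divided by the merged exon length of each gene in the GENCODE v44 annotation lifted to GRCh37, which is newer than the one used for counting. In ESCs, POU5F1 was highest, with 509 ± 10.8 CPM per kb (SD, n = 2). It was followed by LIN28A with 338 ± 5.81, L1TD1 with 223 ± 38.5, DPPA4 with 131 ± 11.0 and PRDM14 with 85.8 ± 18.3 CPM per kb, each apart from its neighbours in both libraries. USP44 (35.3 ± 1.44) and SALL4 (34.9 ± 1.98 CPM per kb) did not differ beyond their spread. ZFP42 (33.3 ± 0.178 CPM per kb) came close behind, with both of its libraries slightly below theirs. LIN28B (27.9 ± 3.35) and NANOG (13.2 ± 1.33 CPM per kb) came last. By these merged lengths, 5392 bp for NANOG and 2870 bp for POU5F1, NANOG was the lowest of the 10 in ESCs and POU5F1 the highest. The order by the length of a single transcript was not tested.

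The order in NECs was different. LIN28A was highest with 210 ± 37.7 CPM per kb. DPPA4 (33.7 ± 9.93), POU5F1 (24.8 ± 19.8), LIN28B (24.3 ± 0.602), SALL4 (23.8 ± 1.39), L1TD1 (6.47 and 23.5) and USP44 (10.8 ± 4.24 CPM per kb) formed a middle group, in which POU5F1 and L1TD1 were spread so widely over the replicates that each gene overlapped its neighbours in this order. PRDM14 (3.23 ± 2.62), ZFP42 (0.954 ± 0.726) and NANOG (0.240 ± 0.192 CPM per kb) were lowest. The level of NANOG in NECs rested on so few reads that its order against ZFP42 held in each library but within wide spreads.

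**Figure D3:**
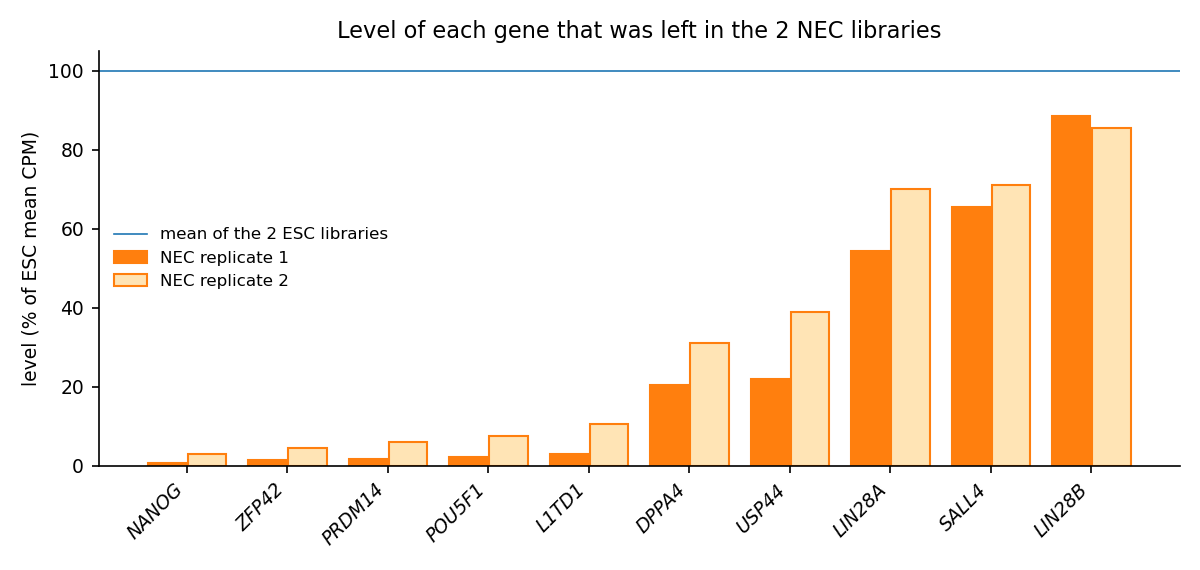
Level of each gene in NEC replicates 1 and 2 as a percentage of the mean CPM of the 2 ESC libraries (blue line at 100). NANOG kept 0.787% and 2.84%, DPPA4 20.3% and 31.1%, and LIN28B 88.4% and 85.4%.

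The NEC replicates also differed from each other. NEC replicate 2 had the higher level in 9 of the 10 genes, and in 17 of the 30 other genes of the pluripotent state listed below. The median ratio of NEC replicate 2 to replicate 1 was 1.00 over tested genes with 10 or more reads in both NEC libraries. It was 1.22 over those of them called lower in NECs. For the 5 genes with the largest changes the ratio was close to constant. It was 3.59 for POU5F1, 3.61 for NANOG, 3.67 for PRDM14, 3.33 for ZFP42 and 3.63 for L1TD1. A ratio of at least 3 was found in 56 of the 16414 tested genes with 10 or more reads in both NEC libraries (0.341%), and in 38 of the 893 such genes that were called lower in NECs (4.26%). DPPA4 (1.53), USP44 (1.77), LIN28A (1.29), SALL4 (1.09) and LIN28B (0.97) had smaller ratios. In ESCs the replicate 2 to replicate 1 ratios of the 10 genes lay between 0.738 for PRDM14 and 1.28 for L1TD1.

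These 2 NEC libraries also differed in markers of other cell types. Neural crest markers summed to 138 and 124 CPM in ESCs, 307 CPM in NEC replicate 1 and 162 CPM in NEC replicate 2. Most of the ESC sums came from ETS1, with 106 and 105 CPM in ESCs and 28.5 and 4.86 CPM in NECs. Between the cell types 8 of the 10 neural crest markers were called higher in NECs and 1, ETS1, lower. Of all genes tested 11.4% were called higher and 9.68% lower, and the calls of the other marker lists here stand beside the same shares. Only 1 of the 10 neural crest markers was higher in NEC replicate 2 than in replicate 1. SOX10, a defining neural crest factor, had 393 and 17 counts in NECs, and TFAP2B had 339 and 36. In ESCs SOX10 had 70 and 90 counts, and it was not called (log2 fold change 1.36, SE 1.12). Other markers of the list differed little between the NEC replicates, such as NGFR (78.4 and 78.9 CPM), SOX9 (34.0 and 29.6) and SNAI2 (24.5 and 19.7). The summed neuroectoderm markers were closer, with 474 and 395 CPM. In ESCs, mesendoderm markers summed to 40.7 CPM in replicate 1 and 109 CPM in replicate 2, led by EOMES with 289 and 1133 counts, and to 8.38 and 6.65 CPM in NECs, and 7 of the 9 tested were called lower. Of the trophectoderm markers 5 were tested, with TFAP2C (log2 fold change -2.06, SE 0.33) and KRT7 (-1.89, SE 0.44) called lower in NECs and GATA2 (3.97, SE 0.59) called higher. The list summed to between 104 and 135 CPM in the 4 libraries, most of it from KRT18, and without KRT18 to 26.6 and 24.5 CPM in ESCs and 11.0 and 8.07 CPM in NECs. The part of these markers in the levels of the 10 genes was not tested. Without NEC replicate 2 the log2 fold changes were -5.56 for POU5F1, -6.98 for NANOG, -5.96 for PRDM14, -6.24 for ZFP42 and -5.11 for L1TD1. Without NEC replicate 1 they were -3.71, -5.13, -4.07, -4.50 and -3.24 in the same order, and all 5 genes were called in both cases.

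POU5F1 and NANOG have copies elsewhere in the genome, and reads of near-identical sequence could be split between them. POU5F1B, a retrocopy of POU5F1 on chromosome 8, had 4739 and 6254 counts in ESCs and 11 and 57 in NECs (log2 fold change -7.42, SE 0.40, adjusted p = 4.31e-05 by edgeR). Its counts came to 16.9% and 17.6% of the POU5F1 counts for the ESC replicates, and to 1.66% and 2.07% for the NEC replicates. The ratio of copy to parent was therefore nearly equal within a cell type and far lower in NECs. The copy NANOGP1 had 155 and 236 counts in ESCs and 6 and 12 in NECs, which was 12.4% and 12.5% of the NANOG counts in ESCs and, from few reads, 50% and 24% in NECs.

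Reads were counted without regard to strand, and POU5F1 and NANOG both overlap other genes. The annotated span of POU5F1 shares 4684 bp with TCF19, a gene on the opposite strand that had 826 and 971 counts in ESCs and 561 and 656 in NECs. POU5F1 itself had 663 and 2749 counts in NECs, so that in NEC replicate 1 the counts of the 2 genes were of similar size. All 8266 bp of the NANOG span lie within NECAP1, which had between 461 and 700 counts in the 4 libraries, against 12 and 50 for NANOG in NECs. How many of the reads lay in the shared stretches was not tested for either gene.

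Other genes tied to the pluripotent state were examined as a list of 30, of which 28 were tested. Of these, 20 were called lower and 1 higher, beside 9.68% and 11.4% of all genes tested, with a median log2 fold change of -2.29. The largest changes were those of the NODAL antagonists LEFTY1 (log2 fold change -10.34, SE 0.23) and LEFTY2 (-9.20, SE 0.15), and the smallest among the genes called lower was that of JARID2, a Polycomb cofactor (-1.53, SE 0.12). ESRRB, an orphan nuclear receptor of the naive state, was the gene called higher, from 3 and 2 counts in ESCs to 30 in each NEC library. SOX2, the partner of POU5F1 and itself a neural factor, was not called and stood at 0.21 (SE 0.10, adjusted p = 0.106 by edgeR), nor was FOXD3 (-1.81, SE 0.94), with 186 and 9 counts in the NEC replicates.

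The genes whose profile over the 4 libraries came nearest to the mean profile of the 10 genes, by Euclidean distance of centred log2 CPM among 11480 genes, were GYLTL1B, RP11-132A1.4, RP11-148B6.2, ALPK3 and CAPG. Their distances ran from 0.075 to 0.187. GYLTL1B, a glycosyltransferase gene, had a mean of 66.9 CPM in ESCs and 9.19 CPM in NECs.

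PCHi-C captures ligation products that contain a promoter, and the comparison asks whether the contacts of a promoter changed along with its gene. A promoter-interacting region (PIR) is a HindIII fragment that was called as a partner of a bait. Calls were made with CHiCAGO, whose score rises with the evidence that a pair of fragments met more often than their distance predicts, and 12 is the lowest score that the lists include. Lists exist for each replicate and for both replicates of a cell type merged. They give no read numbers, and the depth of a call is therefore unknown here. With 2 replicates against 2 the smallest two-sided permutation p is 0.333, and no test between cell types was made.

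Together the 8 baits had 32 PIRs on the merged ESC list and 34 on the merged NEC list, of which 17 were the same fragments. The shared PIRs were 53.1% of the ESC and 50% of the NEC set, where over all baits they were 44.2% and 44.3%. A bait had a median of 3.5 ESC PIRs and 4 NEC PIRs, where the median over all baits was 2 in either cell type. For 0 of the 8 baits did the numbers of PIRs separate the ESC from the NEC replicates. Over the 21768 baits with calls in the replicate lists, 12.9% had more PIRs in both ESC replicates than in both NEC replicates and 13.2% had more in both NEC replicates. A score threshold of 15 left 6 of the ESC and 9 of the NEC PIRs.

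Calls made from these baits, leaving out calls made to them from other baits, were unevenly repeated between replicates. Of 122 pairs in any list, 77 were in a single list. In both ESC replicates 5 pairs were called, which was 15.6% of the number in the merged ESC list (22.9% over all baits), and in both NEC replicates 8 were called, or 23.5% of the merged number (21.1% over all baits). Pairs called from these baits in all 4 replicates numbered 2. From these baits a single pair, that of PRDM14, was in both ESC replicates and neither NEC replicate. That class held 2.56% of the pairs of all baits in the replicate lists. The reverse class, in both NEC replicates and neither ESC replicate, had 0 pairs from these baits, against 2.46%. A pair called to the LIN28A fragment from another bait was also in both ESC replicates and neither NEC replicate, and is given below. The 8 baits had 111 pairs in the replicate lists.

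**Figure D4:**
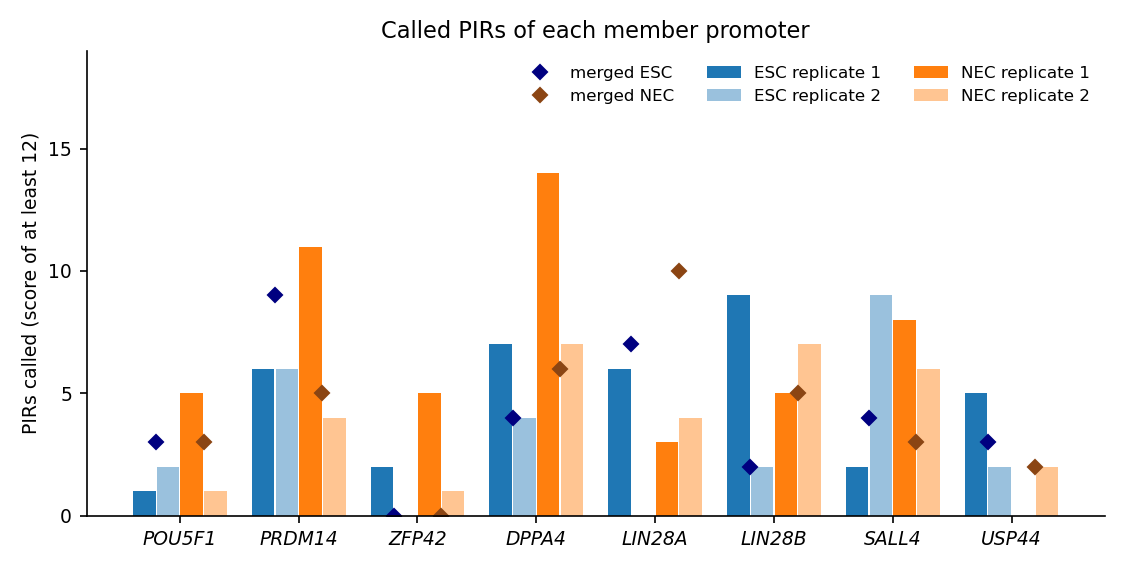
Number of PIRs called with a score of at least 12 for each bait, as bars for the 4 replicates and diamonds for the merged lists of each cell type. The replicates of a cell type differed widely, for example 9 and 2 for LIN28B in ESCs and 14 and 7 for DPPA4 in NECs.

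The POU5F1 bait (chr6:31147993-31151524) holds the start of the longest isoform. The start of the Ensembl canonical transcript (position 31138459) lies on the next fragment, and no list held a call made from that fragment. From this bait the ESC replicates gave 1 and 2 PIRs, the NEC replicates 5 and 1, and each merged list 3. The PIR in both merged lists, in an exon of PSORS1C1 at 51.6 kb (distances are between fragment midpoints), scored 12.88 in ESCs and 14.61 in NECs and was in no single replicate. An ESC PIR at 339 kb held the starts of the noncoding genes LINC00243 and XXbac-BPG27H4.8, the latter with 214 and 350 counts in ESCs and 0 and 1 in NECs, and was called in ESC replicate 1 (12.33) and the merged ESC list (12.71). As the other end, the POU5F1 bait fragment was called from the bait of HLA-C, an antigen presentation gene 98.7 kb away, in both merged lists (14.06 in ESCs and 13.74 in NECs). A call from the bait of NRM and PPP1R18, 492 kb away, was also in both merged lists (12.72 in ESCs and 12.63 in NECs). Calls from the baits of C6orf15 (12.54) and SFTA2 (13.84) were in the merged ESC list and the merged NEC list alone, in that order.

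NANOG starts 1 bp from the end of its fragment (chr12:7938639-7940391), and the next fragment holds the canonical start and the promoter printed above. No list held a call made from either fragment. Contacts of NANOG were thus seen only from the baits of other genes. The fragment of its start was called from the bait of GDF3, a TGF-beta family ligand gene 93.5 kb away, in ESC replicate 1 (score 13.25) and in the merged ESC list (14.43). The pair was absent from ESC replicate 2 and from all NEC lists. GDF3 was called lower in NECs, from 265 and 864 counts in ESCs to 3 and 5 (log2 fold change -7.10, SE 0.66). A call from the bait of ATN1 and ENO2 was found in ESC replicate 1 alone (13.04).

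The PRDM14 bait (chr8:70971901-70984004) had 9 PIRs in the merged ESC list, more than 84.7% of baits had, and 5 in the merged NEC list, more than 68.3% had. All 5 NEC PIRs were also ESC PIRs. The ESC replicates gave 6 PIRs each but the NEC replicates 11 and 4, so the lower merged number in NECs was within the spread of the replicates. The PIR with the highest merged ESC score was the promoter fragment of SLCO5A1, a transporter gene 234 kb away, which scored 26.91 in ESC replicate 2, 12.67 and 18.00 in the NEC replicates, and 15.70 and 14.51 in the merged lists. SLCO5A1 was called lower in NECs, with 102 and 139 counts in ESCs and 32 in each NEC library (log2 fold change -1.98, SE 0.25).

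Among the other PRDM14 contacts, a fragment 15.3 kb upstream scored 15.39 in the merged ESC and 16.50 in the merged NEC list, the highest of this bait in NECs. The pair called from this bait in both ESC and neither NEC replicate had a PIR 79.5 kb downstream (chr8:70893989-70902842), annotated with the pseudogene SUMO2P20. It scored 12.31 and 13.25 in the ESC replicates and 14.09 in the merged ESC list. All 3 scores were close to the threshold of 12. The promoter of TRAM1, a translocation protein gene at 543 kb, was called in both ESC replicates (14.05 and 15.81) and in NEC replicate 1 (12.80).

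The SALL4 bait (chr20:50417053-50421846) had 2 and 9 PIRs by ESC replicate and 8 and 6 by NEC replicate, with 4 and 3 in the merged lists. It gave 1 of the 2 pairs that were called from the 8 baits in all 4 replicates. The PIR, itself a bait, lies 109 kb upstream (chr20:50521353-50535332) and is annotated with the small RNA pseudogene RNU7-6P, with scores of 12.25 and 14.21 in ESCs, 15.23 and 19.63 in NECs, and 14.85 and 19.44 in the merged lists. Both NEC scores exceeded both ESC scores, and this difference was not tested. The read depth behind the scores is unknown, and how often pairs of all baits separate in this way was not counted. The promoter of KCNG1, a potassium channel subunit gene at 781 kb, was called in ESC replicate 2 (20.44) and in both NEC replicates (14.72 and 16.91), while KCNG1 itself was called lower (log2 fold change -1.67, SE 0.23). The promoter of ZFP64, a zinc finger gene at 389 kb, was called in both ESC replicates (12.29 and 12.42) and in NEC replicate 2 (13.06).

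For ZFP42, whose bait is chr4:188915858-188920107, no PIR was in either merged list. The ESC replicates had 2 and 0 PIRs, the NEC replicates had 5 and 1, and each of these 8 pairs was in a single list. Over all baits, 4380 of 21833 had no PIR in the merged ESC list and 4097 none in the merged NEC list.

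The DPPA4 bait (chr3:109052582-109060980), which also holds the start of AC124945.1, had the farthest contacts, with PIRs spread over 3551 kb in the merged ESC list and 3643 kb in the merged NEC list. It gave the other of the 2 pairs called from the 8 baits in all 4 replicates. The PIR, 1734 kb upstream, holds an exon of the cell adhesion gene NECTIN3 (PVRL3 in the count table) and the start of PVRL3-AS1 (chr3:110789012-110792057). Scores were 18.46 and 16.70 in ESCs, 27.43 and 15.06 in NECs, and 17.10 and 20.57 in the merged lists. The ranges of the cell types overlapped. The adjacent fragment, which holds the start of PVRL3, was a PIR in NEC replicate 1 (14.25) and the merged NEC list (13.83) and in no ESC list. PVRL3 stood lower in NECs without being called (log2 fold change -0.72, SE 0.14). A PIR at 236 kb in the MORC1 gene, which held the start of MORC1-AS1, scored 14.01 in ESC replicate 1, 25.48 in NEC replicate 1, and 12.67 and 21.84 in the merged lists, the last being the highest merged score of the 8 baits. MORC1 had 0 counts in all 4 libraries. The promoter of CD47, at 1244 kb, was a PIR in NEC replicate 1 (13.14) and the merged NEC list (12.77), and CD47, a cell surface receptor gene, was called higher in NECs (log2 fold change 2.13, SE 0.11). The promoter of BBX, at 1813 kb, was a PIR in ESC replicate 2 (22.48) and the merged ESC list (16.52) and in no NEC list. BBX stood higher in NECs without being called (log2 fold change 0.40, SE 0.09).

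L1TD1 lies on a fragment (chr1:62651940-62664322) from which no list held a call. This fragment, which holds the promoter printed above, was called from the bait of the deubiquitinase gene USP1, 245 kb away, in both ESC replicates (13.52 and 12.63), in NEC replicate 1 (13.03) and in both merged lists (16.62 in ESCs and 15.90 in NECs). USP1 was not called (log2 fold change -0.16, SE 0.10). The pair was thus present in the merged list of the cell type in which L1TD1 was 14.8-fold lower.

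The LIN28A bait (chr1:26733711-26742821) had 7 PIRs in the merged ESC list and 10 in the merged NEC list, more than 78.6% and 87.2% of baits had. The replicates gave 6 and 0 in ESCs and 3 and 4 in NECs. The highest ESC score belonged to a fragment at 130 kb in the neighbouring genes SH3BGRL3 and UBXN11 (14.62 in ESC replicate 1, 13.24 and 13.66 in the NEC replicates, 15.66 and 16.43 merged). The highest NEC score belonged to an intergenic fragment at 261 kb (16.66 in NEC replicate 1 and 17.04 merged). UBXN11 had a log2 fold change of 1.11 (SE 0.12), under the threshold for a call. As the other end, the LIN28A fragment was called from the bait of ZNF683, 41.9 kb away. The scores were 12.56 and 13.65 in the ESC replicates and 15.4 in the merged ESC list, and no NEC list held the pair. The fragment next to that bait, at 48.6 kb, was a PIR of the LIN28A bait in the merged NEC list alone (12.92). ZNF683 had 0 counts in each ESC library and 1 and 0 in NECs.

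The LIN28B bait (chr6:105403020-105405355) holds the downstream of the 2 promoters printed above, and the upstream promoter, with 37 CpG dinucleotides, lies on another bait (chr6:105378568-105390307). These baits, 19.8 kb apart, were called together in all 4 replicates from the upstream one, with scores of 13.80 and 14.68 in ESCs, 13.82 and 20.03 in NECs, and 16.62 and 20.12 in the merged lists. From the downstream bait the same pair was called in ESC replicate 2 (13.42), in NEC replicate 2 (13.77) and in both merged lists (13.25 and 14.90). The contact between the LIN28B starts was therefore found in both cell types. A fragment in a LIN28B intron, 122 kb downstream of the bait, was called in ESC replicate 2 (13.87) and both NEC replicates (13.96 and 17.12), with 17.45 in the merged NEC list. The highest merged NEC score was that of the promoter of PREP, a peptidase gene at 448 kb (20.11 in NEC replicate 1 and 17.56 merged). No ESC list held this pair, and PREP stood lower in NECs without being called (log2 fold change -0.56, SE 0.09).

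The USP44 bait (chr12:95944964-95949471) had 5 and 2 PIRs by ESC replicate, 0 and 2 by NEC replicate, and 3 and 2 in the merged lists. Both NEC PIRs were also in the merged ESC list. They were a fragment at 25.7 kb annotated with the pseudogene PGAM1P5, with merged scores of 13.17 and 12.97, and the promoter of SNRPF, a splicing factor gene at 304 kb, with 12.77 and 12.47. The merged scores of this bait lay between 12.47 and 13.17, close to the threshold. SNRPF was not called (log2 fold change -0.19, SE 0.09).

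**Figure D5:**
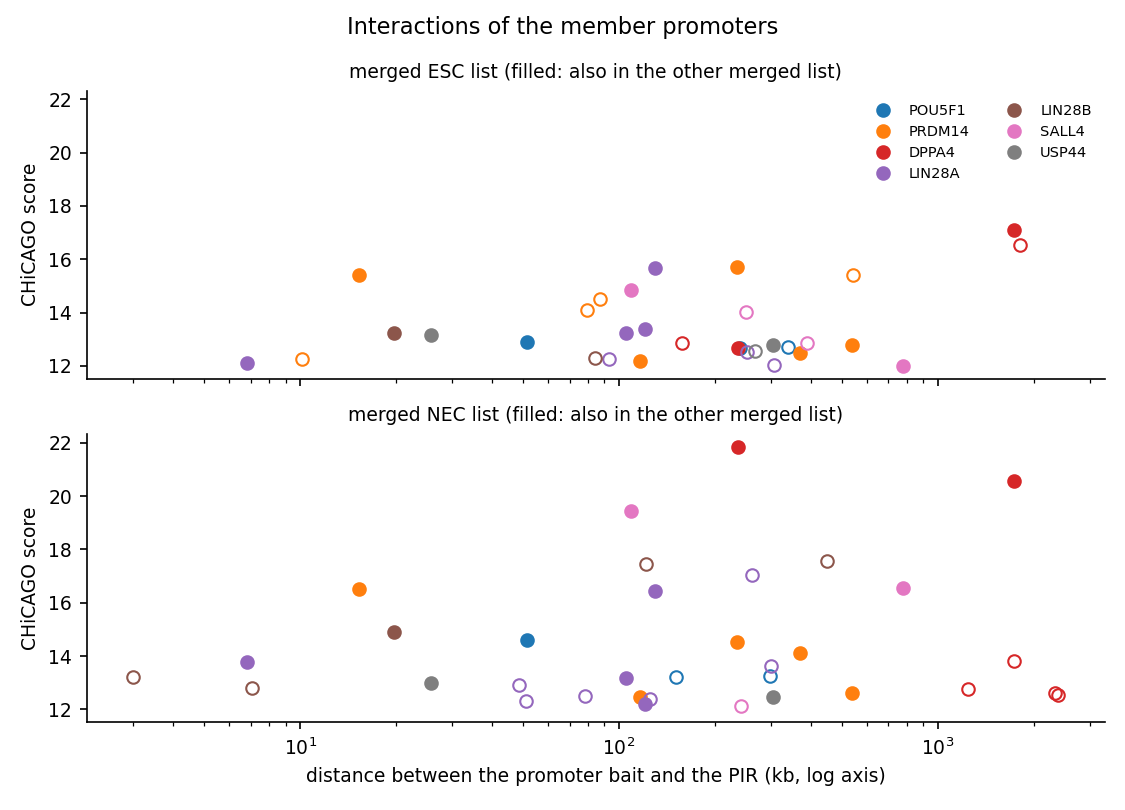
CHiCAGO score against distance from the bait (kb, log axis) for the PIRs of each bait in the merged ESC list (top) and the merged NEC list (bottom), with pairs present in both merged lists filled. ESC scores reached 17.10 and NEC scores 21.84, both for DPPA4, and most lay near the threshold of 12.

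Across the 8 baits, the median merged score was 12.86 for ESC and 13.24 for NEC pairs, where all baits had 13.49 and 13.56, and median distances of 196 kb and 141 kb, against 197 kb and 217 kb. Of the 49 pairs in either merged list, 24 had a PIR that was itself a bait. No pair joined the baits of 2 of these genes. PIRs in any list held the starts of 46 genes, of which 34 were tested, 6 were called lower and 4 higher, beside the 9.68% and 11.4% of all genes that were called lower and higher. Their median log2 fold change was -0.23. The 4 baits of genes that were called lower and had PIRs in the merged lists were those of POU5F1, PRDM14, DPPA4 and USP44. Together they had 19 ESC and 16 NEC PIRs in the merged lists. The 3 baits of genes that were not called (LIN28A, LIN28B and SALL4) had 13 and 18. For each of these baits the numbers by replicate overlapped between the cell types, and a difference between the 2 groups of baits was not tested.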

How the data were processed

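RNA-seq was analysed from the whole-number read counts per gene that the authors deposited, made from trimmed reads aligned to GRCh37 (hg19) and counted without regard to strand on Ensembl genes. The submitters' processing notes name Bowtie 1.0.0 and TopHat2 2.0.8b. The PCHi-C lists the authors deposited hold CHiCAGO scores of at least 12 for pairs of HindIII fragments, and no read numbers.

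Counts were tested with edgeR 4.0.16 in R 4.3.3, as ESC against NEC with 2 replicates each. Low genes were removed with filterByExpr (minimum count 10), and normalisation was by TMM. The SE is the unshrunken log2 fold change divided by the square root of the quasi-likelihood F. The study used DESeq2, and version 1.42.0 was an alternative. On counts simulated for 17564 genes with 200 changed by a log2 fold change of 3, edgeR recovered 197 with 6 false calls and DESeq2 188 with 4. Replicates are labelled biological, and whether they came from separate cultures is not given in the sources used here, so p-values measure the spread between these libraries.

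All 62753 fragments of the lists on the chromosomes of these genes equalled HindIII fragments of GRCh37. The genes, lists and tests were chosen with earlier results of these data known. Named list genes were drawn from the called ones with the 2 largest and 2 smallest changes and up to 3 not called in each list, and named PIRs were the top-scoring, the replicated and those at gene starts. Overlapping genes, SOX9, SNAI2 and the genes whose baits met a fragment of POU5F1, NANOG, L1TD1 or LIN28A were named after their values were seen. Alternatives were other scalings, filters, thresholds and tests, the replicate block, and each library left out.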

Additional observations from a re-analysis of the deposited data

How the results depend on the processing

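Under every alternative run for expression, 7 of the 10 genes were called lower, except for 9 without the fold change threshold and 6 without NEC replicate 1. Of 110 log2 fold changes under 11 alternatives, 109 kept their direction and their side of the threshold, and the exception was USP44 at -1.35 without NEC replicate 1. The median log2 fold change lay between -3.71 and -2.46 when a library was left out. Library size alone moved the median of all genes tested to 0.07. DESeq2 without shrinkage gave -0.08, but over 24360 genes without the filter on low counts, where edgeR without that filter gave -0.07. Calls over all genes numbered 3697, against 2494 with at least 50 counts in 2 libraries and 10738 without the fold change threshold. Without that threshold, 12 genes of the LIN28 and let-7 list and 2 of the H2B ubiquitin list were called, in place of 0. The mesendoderm markers had 7 calls, 4 with at least 50 counts in 2 libraries, which leaves fewer genes tested, and between 4 and 8 when a library was left out (4 without ESC replicate 2). With the replicate block 7 genes were called lower, with a median of -3.06. The replicate numbers are not stated to mark a shared day. Deviations from the group means of same-numbered ESC and NEC libraries had r = 0.06 over 17564 genes.

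A score of at least 15 left 6 PIRs in ESCs, 9 in NECs and 3 shared, in place of 32, 34 and 17, since most scores lay near the threshold. Between single replicates of each cell type 8 to 10 PIRs were shared, without the merging of replicates before calling. With PIRs within 10 kb counted as shared, 22 ESC PIRs were, and with the bait at either end there were 38 PIRs in each cell type. Single replicates had 25 to 38 PIRs in ESCs and 32 to 51 in NECs. Lists hold no read numbers, so depth could not be matched.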
